A study of Danio rerio with 11 samples.

Results

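The cytosolic ribosomal protein genes were followed through 11 RNA-seq libraries of zebrafish heads, eyes and retinae. A gene was counted as a member if its symbol was rpl or rps followed by a number, with an optional letter or like-suffix, or was that of a stalk protein (rplp0, rplp1, rplp2) or of rpsa. Mitochondrial ribosomal protein genes and the S6 kinases were left out. This gave 84 members of the 29387 genes with values. By their rpl or rps symbol alone, 47 were counted with the large subunit and 37 with the small subunit. RPS4Y2 and RPSA2 are printed under the human-form names that the gene table gives them and were kept as members, and 8 members carry a symbol that another member also has and are printed with their Ensembl identifiers.

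Each cytosolic ribosome contains a fixed set of these proteins, joined to ribosomal RNA in the nucleolus, and their messenger RNAs are among the most abundant in growing cells. In vertebrates the mRNAs start with a terminal oligopyrimidine (TOP) tract, through which the TOR pathway controls their translation. In the fish retina, cells divide throughout the early eye cup and, as they leave the cell cycle, become neurons and photoreceptors, after which growth is confined mainly to the ciliary margin.

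The larvae were mutants of the eMIC domain of srrm3, which encodes a splicing regulator of microexons, or their wild-type (WT) siblings. Eyes of each genotype gave 1 library at 48, 60 and 72 hours (hpf) and 1 at 5 days (dpf) after fertilization. The other libraries were WT heads at 24 hpf and 2 replicates of WT adult retina. RNA was pooled before extraction, from 20 to 60 eyes at 48 to 72 hpf, 20 eyes at 5 dpf and 5 retinae in adults. The labels give the heads' strain as AB, and give neither the age of the adults nor whether the adult replicates came from separate fish, so p-values that rest on them may measure technical spread. The 5 dpf and adult libraries were labelled stranded and extracted with another kit than the 48 to 72 hpf eyes, so that step of age and the library set cannot be told apart.

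Libraries held 37724575 to 92560511 gene counts. srrm3 itself was detected at 1.09 to 4.15 cRPKM (an RPKM-type value, scaled by the authors for gene length and depth) in the eyes of both genotypes. It was higher in the mutant library at 48, 60 and 72 hpf and lower at 5 dpf, so its level does not check the genotype labels of a domain mutation. The summed level of 25 rod and cone genes rose from 145 and 148 cRPKM in the 48 hpf mutant and WT eyes to 95589 and 112972 in adult retina. That of 26 lens crystallin genes was 98880 cRPKM in 5 dpf WT eyes and 22.9 and 17.6 in the adult libraries, so the adult tissue lacks the lens that whole eyes contain. In these bulk samples fewer cells of a type and less RNA per cell cannot be told apart.

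Ribosomal protein mRNAs made up a large and falling part of each library. They took 15.8% of gene counts in 24 hpf heads, 11.3% and 13.8% in 48 hpf mutant and WT eyes, 9.75% and 10.8% at 60 hpf, and 11.5% and 13.4% at 72 hpf. At 5 dpf the share was 8.98% in mutant and 7.09% in WT eyes, and in the adult retina libraries it was 5.34% and 2.07%. The head stood highest and the adult libraries lowest, the mutant lay below its WT sibling at the 3 earlier stages and above it at 5 dpf, and the adult replicates differed from each other by more than any sibling pair did. The 95% Wilson intervals were narrow, 15.7 to 15.8% in the head and 2.07 to 2.08% in adult replicate 2, and cover counting error only.

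The median member stood at 2842 cRPKM in the head, 2056 and 2451 at 48 hpf, then 1818 and 2047 at 60 hpf, then 2043 and 2186 at 72 hpf and 1620 and 1278 at 5 dpf, in each case with the mutant named before the WT. In adult retina it was 931 and 372 cRPKM. Of the 100 most abundant genes of a library, 61 were members in the head and 58 and 62 in 48 hpf mutant and WT eyes. The counts were 53 and 54 at 60 hpf, then 54 and 56 at 72 hpf and 52 and 41 at 5 dpf. They were 40 in adult replicate 1 and 6 in adult replicate 2. Over the same libraries the median of all genes above 5 cRPKM moved only between 12.6 and 14.6 cRPKM.

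**Figure D1:**
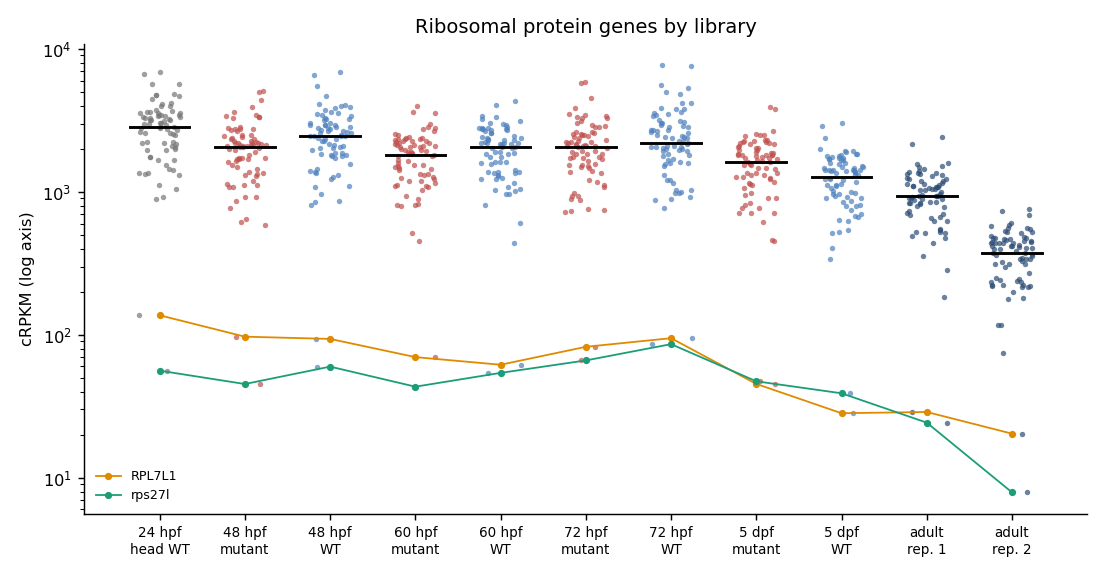
Level of 77 of the 82 ribosomal protein genes that passed the low-count filter (points, cRPKM on a log axis) in each of the 11 libraries, with the median of the 82 as a black bar. The bulk of the members lies near 2842 cRPKM in the head and near 372 in adult replicate 2, while the lines show the low members RPL7L1 and rps27l, which reach at most 137 and 85.9 cRPKM.

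Both subunits were represented at similar levels in every library. Large-subunit genes took 9.07% and small-subunit genes 6.69% of the head counts, and 3.11% and 2.23% of the counts of adult replicate 1. Their median members were at 2765 and 2960 cRPKM in the head and at 355 and 391 cRPKM in adult replicate 2, so small-subunit genes had the slightly higher median at both ends. No test was made of this difference in level.

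By mean over the 11 libraries the most abundant members were RPS2, at the mRNA entry side of the small subunit, with 4595 cRPKM, RPLP0, the base of the acidic stalk that recruits elongation factors, with 4328, and rps20 with 3772. RPLP0 stood at 5666 cRPKM in the head, 4965 and 6937 in 48 hpf mutant and WT eyes, 3608 and 3385 at 60 hpf, then 5784 and 7643 at 72 hpf, 3800 and 2904 at 5 dpf, and 2153 and 762 in adult retina. It was highest in the 72 hpf WT library and lowest in adult replicate 2. The stalk partner RPLP1 was highest in the head instead, at 4487 cRPKM, and fell to 1125 and 441 in the adult libraries.

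Among the 82 members that passed the filter, adult replicate 2 was the lowest library for 81. The highest library was the 24 hpf head for 54 members, the 72 hpf WT eye for 25, the 48 hpf WT eye for RPL28 and RPS16, and adult replicate 1 for 1 member. RPS6, the small-subunit target of S6 kinase, represents the larger group: it stood at 3968 cRPKM in the head, 2861 and 3434 at 48 hpf, then 2485 and 2768 at 60 hpf, then 2829 and 3081 at 72 hpf, 2176 and 1759 at 5 dpf and 1255 and 461 in adults. RPSA2, RPS14 and rps3, all of the small subunit, had the same highest and lowest libraries, with 2219, 3444 and 2987 cRPKM in the head and 339, 456 and 489 in adult replicate 2. So did rps27a, whose product is made as a fusion with ubiquitin, with 3699 and 524 cRPKM.

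A few members stood far below the rest. RPL17 ENSDARG00000057556 was at 0 to 0.32 cRPKM (0 to 13 counts), and the low-count filter removed it and 1 other member, leaving 82 in the tests. Whether another identifier holds the main rpl17 gene could not be settled from the gene names, so these values may not be its level. RPL7L1, a relative of RPL7 that in yeast and human cells acts in ribosome assembly, lay between 20.3 and 137 cRPKM, and rps27l between 7.89 and 85.9. No source used here says how reads were assigned between near-identical paralogs, and the split of counts within each such set is uncertain.

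The change with age between 48 hpf and 5 dpf was tested over the 8 larval eye libraries. Of 82 members 38 fell and 1 rose (edgeR's quasi-likelihood test, Benjamini-Hochberg adjusted p below 0.05 over all 21829 genes tested), while of all genes tested 18.2% were called lower and 19.0% higher. The median member changed by −0.51 on the log2 scale per doubling of age, against −0.01 for all genes, and 81 of 82 members had a negative slope. With library totals as the scale or with limma 9 of 82 members fell. That is a smaller share than those of all genes, 15.2% with library totals and 15.9% and 16.3% with limma at pseudocounts of 1 and 0.1. The 9 members were the same in the 3 settings, RPL7L1, RPL23A, RPL31, RPS13, RPS16, RPS21, RPS26 ENSDARG00000037071, rpl7a and rplp2l. No other member fell in them. By subunit 19 of 46 large-subunit and 19 of 36 small-subunit genes fell, with medians of −0.51 for each. Summed levels of 26 cycling-cell genes moved in the same direction, from 2070 and 1973 cRPKM at 48 hpf to 788 and 616 at 5 dpf in mutant and WT eyes, and lens and photoreceptor sums in the opposite one. Their part in the fall was not tested.

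The fall was largest for RPL7L1, at 96.9 and 93.5 cRPKM in 48 hpf mutant and WT eyes, 69.7 and 61.7 at 60 hpf, then 82.3 and 94.6 at 72 hpf and 45.3 and 28.2 at 5 dpf. Its slope was −1.03 ± 0.23 (SE; edgeR adjusted p = 0.0100). RPL29 followed with 2014 and 2471 cRPKM at 48 hpf, then 1660 and 2095 at 60 hpf, then 2219 and 2937 at 72 hpf and 1179 and 924 at 5 dpf. For both genes the 5 dpf libraries were the lowest and did not overlap the earlier ones, which have no steady order. The slope of RPL29 was −0.83 ± 0.26 (edgeR adjusted p = 0.0347; not called with library totals or limma), and that of RPS21 was −0.79 ± 0.20 (0.0169). For RPL29 the slope turned positive in the fit with the 5 dpf sibling pair left out.

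RPS26 ENSDARG00000037071, RPL31 and RPL23A had the lowest p-values after RPL7L1 among members that fell, with slopes of −0.72 ± 0.16, −0.66 ± 0.15 and −0.67 ± 0.16 (edgeR adjusted p = 0.0103, 0.0106 and 0.0128). RPL31 stood at 1075 and 1356 cRPKM at 48 hpf and 765 and 640 at 5 dpf. RPL23A, which sits at the mouth of the peptide exit tunnel, went from 3349 and 3926 to 2213 and 1702. In each case both 5 dpf libraries lay below all 6 earlier eye libraries. The same held for RPL35A and RPS24, which did not pass, so this order is not particular to members that passed.

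At the flat end were RPL4, a protein of the exit tunnel, with a slope of −0.05 ± 0.16, RPL12 with −0.12 ± 0.14, RPL3, near the peptidyl transferase centre, with −0.14 ± 0.13, rplp2 with −0.15 ± 0.17 and rps27l with −0.21 ± 0.24, none of which passed (edgeR adjusted p = 0.403 to 0.817). RPL4 stood at 1608 and 1730 cRPKM in 48 hpf mutant and WT eyes, 1530 and 1612 at 60 hpf, then 1389 and 1306 at 72 hpf and 1868 and 1411 at 5 dpf. Its 5 dpf values overlapped those of the earlier eyes, and the 5 dpf mutant library was its highest eye library. Without the 48 hpf pair the slopes of RPL4 and RPL12 turned positive, at 0.084 and 0.042.

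Diamond-Blackfan anaemia is a human disorder of red cell production, caused by loss of a copy of a ribosomal protein gene. Some of the genes known from it are given here, not a full list. Their calls stand beside 38 of all 82 members and 18.2% of all genes called lower. Passing did not follow the size of the slope, since RPS24 and RPL11 were steeper than RPS19 and did not pass. RPS7 fell by 0.78 on the log2 scale per doubling of age (edgeR adjusted p = 0.0345), RPS19 by 0.44 (0.0306), and RPS26 ENSDARG00000037071 as above, though library totals or limma kept the call only for the last. RPS24, RPL35A, RPL11, RPS26 ENSDARG00000030408 and the RPL5 genes did not pass, with slopes of −0.70, −0.51, −0.71, −0.31, −0.54 and −0.22. RPL5 and RPL11 join 5S rRNA in a particle that can bind the p53 regulator MDM2. RPL11 had a slope as steep as several members that passed but a larger error, 0.41. It was high at 48 and 72 hpf and low at 60 hpf. Its log2 ratio of mutant to WT was −0.70, −0.10 and −0.55 at these stages in order of age, and 0.54 at 5 dpf. The part of each in the error was not tested.

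**Figure D2:**
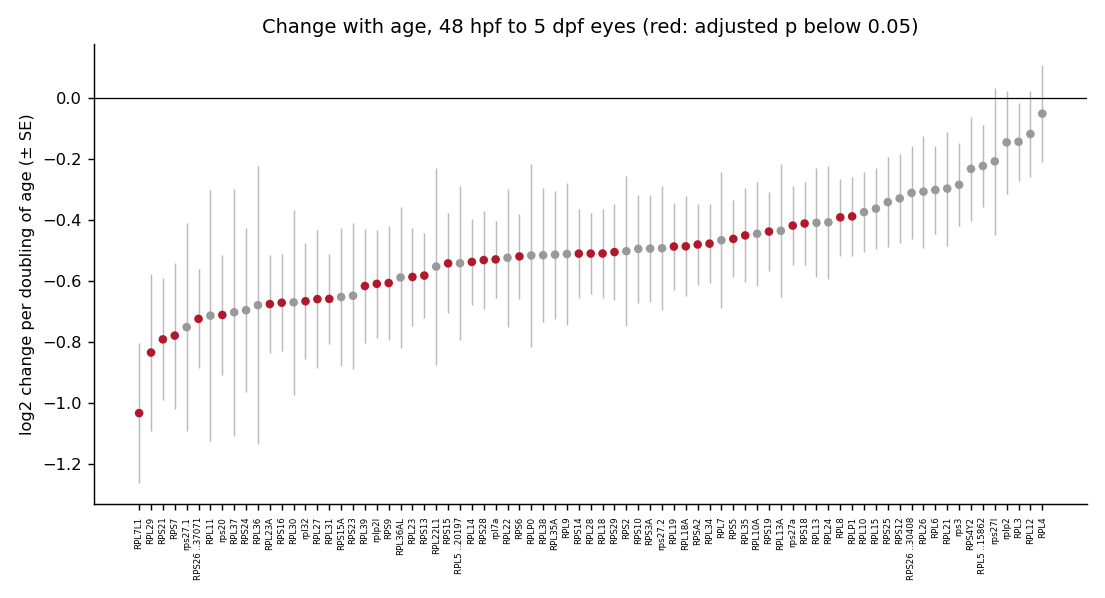
Fitted log2 change per doubling of age between 48 hpf and 5 dpf for 77 of the 82 ribosomal protein genes tested, sorted, with standard errors; red points passed at an adjusted p below 0.05, and the last digits of the identifier follow names that repeat. All genes shown lie below 0, with RPL7L1 lowest at −1.03.

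The calls rest on the 5 dpf pair, which is also where the library set changes. Without it no member was called, against 1.62% of all genes called lower, and the median slope was −0.22. Without the 48 hpf pair only RPS21, RPS13, RPS26 ENSDARG00000037071 and RPL31 fell, a smaller share than the 12.0% of all genes called lower. Sibling libraries entered as independent, so these p-values may be too small.

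The larval course was not a steady fall. The median member was lower at 60 hpf than at 48 hpf, by 0.29 on the log2 scale in WT and 0.19 in mutant eyes, and higher at 72 hpf than at 60 hpf, by 0.21 in both. From 72 hpf to 5 dpf it fell by 0.94 in WT and 0.40 in mutant eyes. The corresponding medians of all genes were −0.07 and −0.04, then 0.06 and 0.04, then −0.26 and −0.06. These are single libraries and were not tested.

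How much each member dipped at 60 hpf varied, and it varied alike in the 2 genotypes. For the 79 members with a mean of at least 200 cRPKM, the log2 level at 60 hpf was set against the mean of 48 and 72 hpf. In WT eyes 61 of 79 were lower at 60 hpf, with a median difference of 0.24 and a range from −0.43 to 1.23, and in mutant eyes 57 of 79 were lower, with a median of 0.23 and a range from −0.35 to 0.86. Of all genes compared, 53.9% were lower at 60 hpf in WT eyes and 52.7% in mutant eyes. Across these 79 genes, which are not independent replicates, the differences in the 2 genotypes correlated with r = 0.953 and rho = 0.958. The libraries of a stage may share their handling, so this is a description only.

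RPL11 and RPL36 dipped most in WT eyes. RPL11 stood at 2463 and 4015 cRPKM in 48 hpf mutant and WT eyes, 1781 and 1906 at 60 hpf, then 3378 and 4960 at 72 hpf, 1756 and 1210 at 5 dpf, 928 and 325 in adults and 2962 in the head. RPL36 stood at 1198 and 1865 at 48 hpf, then 803 and 961 at 60 hpf, then 1720 and 2712 at 72 hpf, 811 and 620 at 5 dpf, 473 and 180 in adults and 1364 in the head. For both genes each 60 hpf library lay below each 48 and 72 hpf library, and the 72 hpf WT library was the highest of the series.

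RPL37 was as variable, at 2342 and 3511 cRPKM at 48 hpf, then 1967 and 2362 at 60 hpf, then 3352 and 5338 at 72 hpf, 1624 and 1245 at 5 dpf, 889 and 315 in adults and 3155 in the head. Opposite to these, RPL21 was higher at 60 hpf, with 1540 and 1848 cRPKM, than at 48 hpf, with 1324 and 1570, or at 72 hpf, with 1209 and 1204. RPL26 did the same, with 1948 and 2367 cRPKM at 60 hpf, then 1705 and 2017 at 48 hpf and 1544 and 1566 at 72 hpf. Within each genotype the 60 hpf library was thus the highest of the 3 for both genes.

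Each library's median member was subtracted, and then each gene's own mean over the libraries. A single axis held 66.4% of the remaining variance among the 79 members. At its positive end were RPL36, RPL11, RPL37, RPL22L1 and RPS24, and at its negative end rplp2, RPL21, RPL26, RPL4 and RPS4Y2. The 72 hpf WT library lay farthest towards the first group (loading 0.64), followed by the 72 hpf mutant (0.37) and 48 hpf WT (0.29) libraries, and the adult libraries lay farthest towards the second (−0.27 and −0.35). Members' positions on the axis had rho = −0.24 with gene length, as implied by the deposited values, and 0.13 with mean level, across genes. The SD of the deviations was 0.36 on the log2 scale in the 72 hpf WT library, 0.27 in adult replicate 2 and between 0.14 and 0.21 in the other 9.

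**Figure D3:**
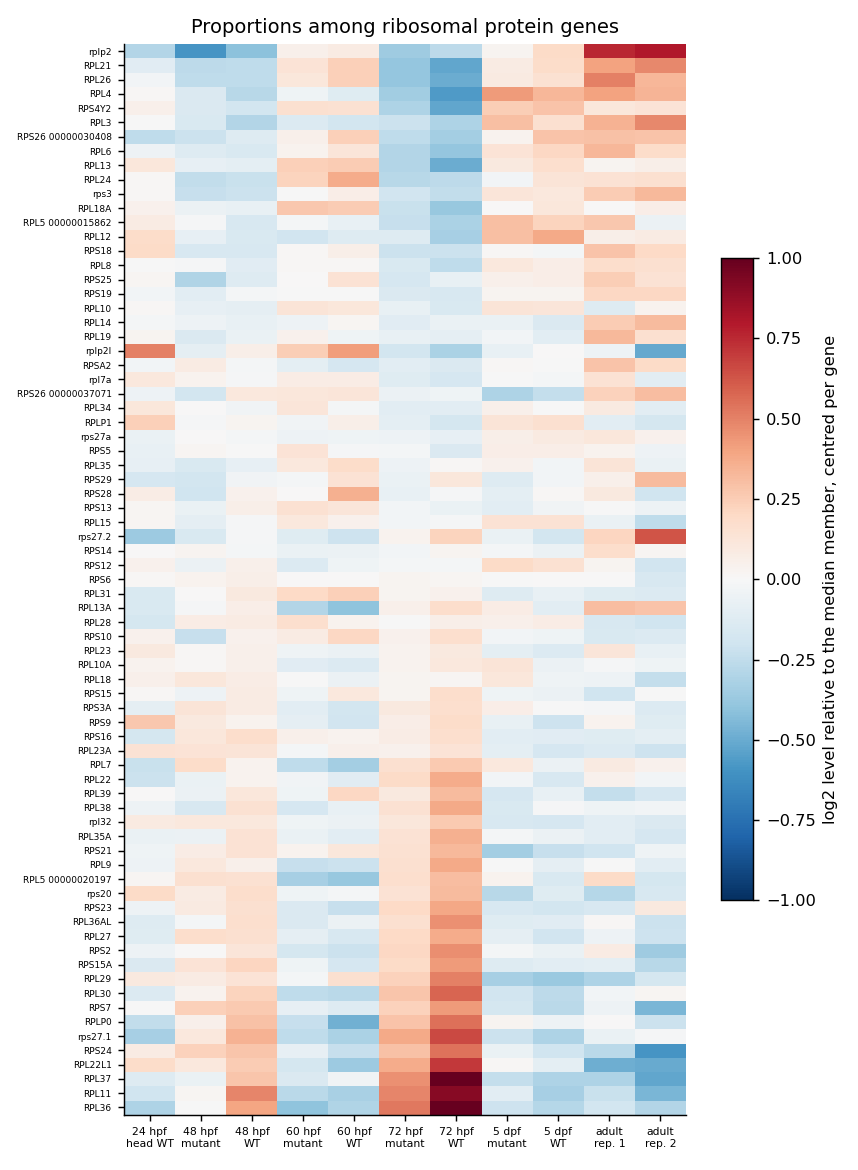
Log2 level of 75 of the 79 ribosomal protein genes relative to the median member of the same library, centred per gene, with libraries in columns and genes sorted along the main axis of variation; colours stop at −1 and 1. The 8 genes at the bottom, from RPL36 up to RPS7, are highest in the 72 hpf WT column and the top 3, rplp2, RPL21 and RPL26, in an adult column.

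Members with a wide spread over the 11 libraries were RPL37 (SD of the log2 level 1.13), RPL22L1 (1.11), RPL11 (1.11), RPS24 (1.09) and RPL36 (1.08). RPS24 stood at 1421 cRPKM in the head, 1119 and 1368 at 48 hpf, then 799 and 805 at 60 hpf, then 1162 and 1515 at 72 hpf, 712 and 523 at 5 dpf and 356 and 116 in adults. Among the 82 members tested the most even were rplp2 (0.48), RPL3 (0.62), RPL21 (0.62) and rps27.2 (0.63). RPL3 ranged from 610 cRPKM in adult replicate 2 to 3322 in the head.

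Paralogous genes shifted against each other. The stalk gene rplp2l stood at 3.73 times rplp2 in the head, at 3.04 and 2.97 times in 48 hpf mutant and WT eyes, 2.47 and 2.72 at 60 hpf, then 2.43 and 2.08 at 72 hpf, 2.00 and 1.89 at 5 dpf and 1.23 and 0.866 in adults. The libraries of each stage lay below all those of the stage before it, though the 60 and 72 hpf mutant ratios were close. The ratio came from a fall of rplp2l, from 4149 cRPKM in the head to 903 and 270 in adults, beside rplp2 levels of 1113 and then 733 and 311. In the age fit rplp2l fell by 0.61 ± 0.18 per doubling (edgeR adjusted p = 0.0285) and rplp2 did not pass (−0.15 ± 0.17, 0.522). The difference of the 2 slopes was not tested.

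RPL22L1, the relative of RPL22 that in mammals can replace it in ribosomes and also acts in splicing, was the less abundant of that pair throughout. The ratio was 0.640 in the head, 0.547 and 0.565 at 48 hpf, then 0.441 and 0.407 at 60 hpf, then 0.548 and 0.611 at 72 hpf, 0.499 and 0.505 at 5 dpf and 0.334 and 0.346 in adults. Adult retina had the lowest values and the head the highest, with little difference between siblings. RPL22 itself went from 1436 cRPKM in the head to 548 and 215 in adults.

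The gene rps27.2 was below rps27.1 in every library but adult replicate 2. Their ratio was 0.766 in the head, 0.652 and 0.608 at 48 hpf, then 0.855 and 0.841 at 60 hpf, then 0.616 and 0.577 at 72 hpf, 0.865 and 0.855 at 5 dpf and 0.952 and 1.22 in adults. Siblings again lay close together, and 60 hpf and 5 dpf lay above 48 and 72 hpf by more than siblings differed. The 48 and 72 hpf values overlapped each other, and those of 60 hpf and 5 dpf were close. The paralog rps27l stayed at 0.0203 to 0.0392 times rps27.1.

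The RPL5 genes alternated with stage in the opposite sense. ENSDARG00000020197 stood at 1.31 and 1.45 times ENSDARG00000015862 in 48 hpf mutant and WT eyes, 0.934 and 0.940 at 60 hpf, then 1.53 and 1.79 at 72 hpf, 0.968 and 0.894 at 5 dpf, 1.104 and 1.073 in adults and 1.12 in the head. RPS26 ENSDARG00000037071 stood at 0.762 to 1.35 times RPS26 ENSDARG00000030408, lowest in the 5 dpf pair. RPL7L1 was at 0.0159 to 0.0387 times RPL7.

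**Figure D4:**
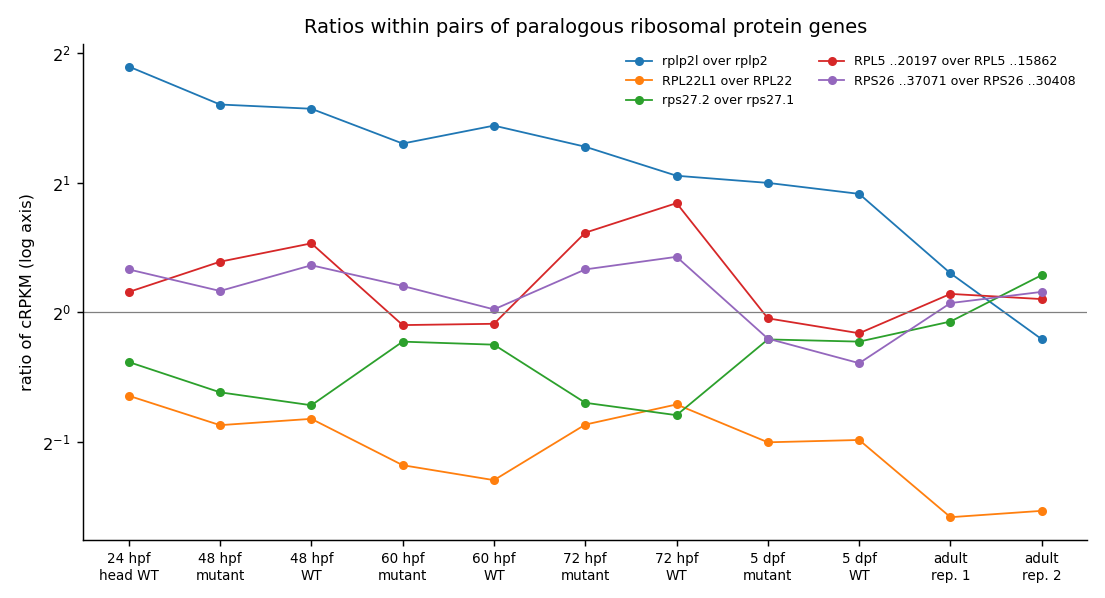
Ratio of cRPKM within 5 pairs of paralogous ribosomal protein genes in each library, on a log axis; lines only guide the eye between libraries, and the last digits of the identifier follow names that repeat. The ratio of rplp2l to rplp2 falls from 3.73 in the head to 0.866 in adult replicate 2, while the RPL5 and rps27 ratios swing between 60 hpf and its neighbouring stages in both genotypes.

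Mutant eyes held less ribosomal protein mRNA than WT eyes at 48, 60 and 72 hpf, and more at 5 dpf, by small amounts. The median log2 ratio of mutant to WT (cRPKM plus 1) was −0.29 at 48 hpf, where 80 of 81 members that reached 5 cRPKM were lower, against 40.5% of all such genes. It was −0.16 at 60 hpf, with 78 of 81 lower against 36.4% of genes, and −0.20 at 72 hpf, with 74 of 81 lower against 39.7%. At 5 dpf it was 0.33, with 81 of 82 higher against 72.7% of genes, but with TMM-scaled values the 5 dpf median was 0.06 and 61 of 81 members were higher. Relative to the median of all genes of the same pair, the members stood at −0.34, −0.22, −0.26 and 0.11. Of the 81 members that reached 5 cRPKM in each pair, 71 were lower in the mutant at the 3 earlier stages and higher at 5 dpf, against 4.17% of all such genes, and with TMM-scaled values 57 were. The shares of all genes here are on the cRPKM scale. No such share stands beside the TMM-scaled counts of 61 and 57, so they cannot be read as particular to the members.

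**Figure D5:**
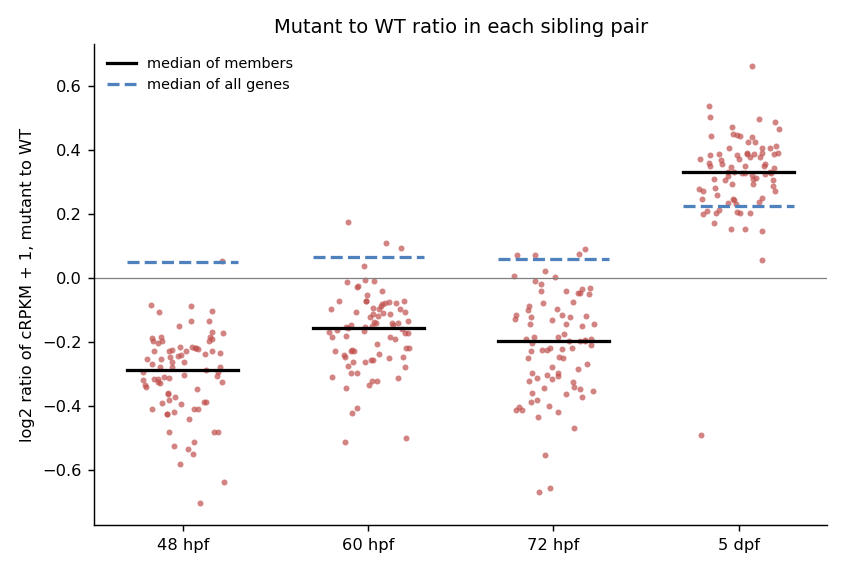
Log2 ratio of mutant to WT level (cRPKM plus 1) for each of 82 ribosomal protein genes (points) in the 4 sibling pairs, with the median of members (black) and of all genes (dashed). The median of members is below that of all genes at 48, 60 and 72 hpf and above it at 5 dpf, where both are above 0.

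The members' counts in a pair come from the same 2 libraries and are not independent, and each pair is 1 library per genotype. Tissue markers differed within pairs too. The summed level of 22 skeletal muscle genes was 17226 (mutant) and 10151 cRPKM (WT) at 48 hpf, then 8150 and 2273 at 60 hpf, then 1912 and 2363 at 72 hpf, and 7261 and 2630 at 5 dpf. At 5 dpf 20 exocrine pancreas genes summed to 5707 cRPKM in the mutant and 37.6 in the WT library, none of them at 0 in either, and rod and cone genes to 5834 and 39728. The part of these differences in the ribosomal protein ratios was not tested.

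Fitted over the 4 pairs, no member passed the test of genotype. The median change was −0.22 on the log2 scale against −0.01 for all genes, 81 of 82 members were negative, and the lowest edgeR adjusted p was 0.881. At an unadjusted p below 0.05 there were 28 of 82 members (34.1%), against 4.92% of all 21829 genes. The members come from the same libraries and are not independent, so these shares are a description only. The spread in this fit is the variation of the mutant to WT ratio between stages. After adjustment edgeR called 0.00458% of all genes higher and 0.0% lower. DESeq2 called RPL39, an exit tunnel protein, lower (−0.39 ± 0.11, DESeq2 adjusted p = 0.0481), beside 0.234% of all genes called lower, and limma called no member.

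The most negative members in that fit were RPL36 (−0.44 ± 0.14) and RPL37 (−0.43 ± 0.14), both with an edgeR adjusted p of 0.881. RPL38, RPL39, RPS29 and RPS28 had the lowest unadjusted p-values. RPL39 stood at 2717 (mutant) and 3610 cRPKM (WT) at 48 hpf, then 2430 and 3220 at 60 hpf, then 3008 and 3823 at 72 hpf and 1957 and 1690 at 5 dpf. RPS28 stood at 1281 and 1789, 1305 and 1848, 1382 and 1582, and 1068 and 929 in the same order. Both were lower in the mutant in 3 of 4 pairs. RPL7L1 (0.03 ± 0.12), RPL4 (−0.07 ± 0.10) and RPL3 (−0.09 ± 0.10) were closest to 0, and scaling by library totals turned RPL4 and RPL3 to 0.078 and 0.049, and leaving out the 5 dpf pair turned RPL7L1 to −0.067.

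Whether the genotype ratio changed with age was tested by an interaction term. No member passed, by edgeR, DESeq2 or limma, and no member had an unadjusted p below 0.05. Of all 21829 genes edgeR called 0.0% higher and 0.0% lower, with 420 at an unadjusted p below 0.05. The median member term was 0.24 per doubling of age against −0.01 for all genes, and 81 of 82 were positive. RPL11 had the highest, 0.65 ± 0.83, and RPL36 stood at 0.51 ± 0.94. When stage entered as a factor and each mutant was set against its own sibling, the members' median was 0.25 and again no member passed, while 49 of all genes were called higher and 28 lower.

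Both adult retina libraries gave these mRNAs a smaller share of counts than 5 dpf eyes, by an amount that differed between replicates. Few members were called lower. A fit over all 11 libraries set adult retina against 5 dpf eyes. The median member was at −0.80 on the log2 scale, against 0.06 for all genes, and 81 of 82 were negative. The 5 dpf side holds eyes of both genotypes, with 1 genotype effect shared by all stages. The members' median mutant to WT ratio at 5 dpf did not share the sign of the earlier pairs. How far this moved the members' median in the fit is not shown here. Only RPL22L1 passed as lower (−1.30 ± 0.40, edgeR adjusted p = 0.0451) and 1 member passed as higher, while of 23235 genes 16.6% were called lower and 17.5% higher. By other settings over the same libraries 6 members were lower with library totals (23.6% of all genes), 10 with DESeq2 (19.1%), and 15 and 18 with limma at pseudocounts of 1 and 0.1 (23.7% and 25.3%). In each of these settings, as with edgeR, the share of the 82 members called lower was below that of all genes. For RPS6 and RPL3, which did not pass in this fit, both adult libraries lay below all others. The same held for RPL22L1, at 453 and 337 cRPKM in 5 dpf mutant and WT eyes and 183 and 74.2 in the adult libraries. Without the 5 dpf mutant library it did not pass (−1.13). Between the same tissues 24 of 26 cycling-cell genes were lower, their sum going from 788 and 616 cRPKM at 5 dpf to 112 and 76.2 in adults, as were 24 of 26 lens crystallin genes, and the part of either in the result was not tested.

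After RPL22L1 the most negative were rps27l (−1.18 ± 0.46, edgeR adjusted p = 0.0931) and RPLP1 (−1.10 ± 0.40, 0.0776). Nearest to 0 were RPL7L1 (−0.08 ± 0.21), rplp2 (−0.21 ± 0.35) and RPS26 ENSDARG00000037071 (−0.34 ± 0.36). Without adult replicate 2 RPL7L1 and rplp2 turned to 0.049 and 0.19, and without the 5 dpf mutant library RPL7L1 turned to 0.080. rplp2 stood at 771 and 697 cRPKM at 5 dpf and at 733 and 311 in adults, so replicate 1 lay within the 5 dpf values.

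Leaving out either adult replicate also moved the count of members called. Without adult replicate 1, 80 members were lower, against 27.4% of all genes, with a median of −1.55. Without adult replicate 2, 10 were lower, against 23.0%, with a median of −0.35. Those 10 were RPL10, which joins the large subunit late in its assembly, RPL12, RPL15, RPL22L1, RPL28, RPL39, RPLP1, RPS15, rps20 and rps27l. In each of these fits the lone adult library is assumed to vary like the others.

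Replicate 2 lay below replicate 1 for all 82 members, by 1.34 on the log2 scale at the median, or 2.53-fold. At least a 2-fold lower level was seen for 79 of 82, against 12.0% of all genes, whose median was 0.07. RPL10A stood at 1096 and 440 cRPKM in replicates 1 and 2, RPS23, next to the decoding centre, at 894 and 438, and RPL35A at 622 and 246. The widest difference was −1.74, for rplp2l.

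Other values moved with it. The summed level of 35 other TOP and elongation factor genes was 12252 cRPKM in replicate 1 and 6009 in replicate 2, with a median log2 ratio of −0.80. Skeletal muscle genes summed to 2443 and 215 cRPKM and 12 erythrocyte genes to 698 and 312. The rod and cone sum was 95589 and 112972, and the 73 mitochondrial ribosomal protein genes summed to 1779 and 1582. The part of muscle or blood in the difference was not tested.

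The 24 hpf head had 63 of 81 members higher than the 48 hpf WT eye, against 43.9% of all genes, with a median log2 ratio of 0.21 beside −0.08 for all genes. With TMM-scaled values the members' median was 0.38, and no median of all genes on that scale stands beside it. The highest ratios were those of rplp2l (0.70), RPS18 (0.61) and RPL12 (0.58), and the lowest those of RPL36 (−0.45), RPL11 (−0.44) and rps27.1 (−0.43). Tissue and age differ together here, the head library is not replicated, and no test was made.

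The genes that build and use ribosomes did not all follow the members. Of 78 ribosome biogenesis genes 37 fell with age in the larval eye and none rose, against the 18.2% and 19.0% of all genes above, with a median of −0.42. DKC1, the pseudouridine synthase of the nucleolus, went from 96.8 and 82.8 cRPKM in 48 hpf mutant and WT eyes through 55.9 and 54.2 at 60 hpf and 56.7 and 48.1 at 72 hpf to 31.9 and 20.3 at 5 dpf, and fell by 1.35 per doubling (edgeR adjusted p = 0.000772). Of 13 RNA polymerase I genes 6 fell. In mutant against WT eyes the biogenesis medians were 0.15, 0.01, 0.08 and 0.52 at 48, 60 and 72 hpf and 5 dpf, beside −0.29, −0.16, −0.20 and 0.33 for the ribosomal proteins.

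Of 35 other TOP and elongation genes 12 fell (34.3%) and 8 rose (22.9%, near the 19.0% of all genes), and of 35 initiation factor genes 14 fell (40.0%) and 1 rose. Among those that rose was EEF1A1 ENSDARG00000039502, a gene for the elongation factor that delivers aminoacyl-tRNA, at 4.98 and 5.97 cRPKM at 48 hpf, then 47.8 and 157 at 5 dpf and 442 and 617 in adults. It rose by 3.01 ± 0.36 per doubling (edgeR adjusted p = 0.00109). Of 21 TOR and MYC regulators 2 fell and 2 rose, 9.52% each way, which is below the shares of all genes.

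Mitochondrial ribosomal protein genes had a negative median change with age in the larval eye, as the members did, but a positive one from 5 dpf to adult. Of 73 genes 29 fell (39.7%) and none rose with age in the larval eye, against 18.2% and 19.0% of all genes, with a median of −0.59. From 5 dpf to adult 37 of 73 rose (50.7%) and none fell, against 17.5% and 16.6% of all genes, with a median of 0.56, beside 1 higher and 1 lower of 82 and a median of −0.80 for the cytosolic set in the same fit. MRPL28 stood at 22.8 and 20.2 cRPKM in 5 dpf mutant and WT eyes and at 40.3 and 36.8 in adults, where the groups did not overlap (1.27 ± 0.15, edgeR adjusted p = 0.00169). The difference between the gene sets was not tested.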

How the data were processed

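Polyadenylated RNA was sequenced in 11 libraries. For every gene the authors deposited a raw read count and an RPKM-type value scaled by length and depth, the cRPKM. Build danRer10 is named by the submitters' processing notes. No source used here gives the aligner, counter, strand setting or meaning of the c, which leaves overlapping genes, antisense genes and paralogs uncertain. Of 31848 genes listed, 2461 without any value were left out.

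Levels are cRPKM; ratios are log2(cRPKM + 1) over genes reaching 5 cRPKM in the higher library. Tests used the deposited counts in R 4.3.3 with edgeR 4.0.16: filterByExpr, TMM, quasi-likelihood fits with the robust option, and a threshold of 0.05 on p-values adjusted over all genes by Benjamini-Hochberg. Genotype was fitted with stage as a factor, age as log2 hours with genotype, their product, and adult against 5 dpf with stage and genotype, with 3, 5, 4 and 4 residual degrees of freedom. Standard errors are the log2 change over the square root of F, hence approximate. Siblings were compared within stage; replicate numbers pair no samples. Scripts were tested on simulated counts. Alternatives used DESeq2 1.42.0, limma 3.58.1, other scalings and filters, and left-out libraries. TMM factors without the members, leaving out the 5 dpf mutant library, stage as a factor in the interaction fit, and TMM-scaled counts of members by direction were added after seeing the data.

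The members and gene lists were chosen with earlier results of these data known. Named members follow a rule: a panel by role, paralog sets, up to 4 calls per direction with the lowest p and 3 extreme changes per fit, the 6 most and least variable, the 3 highest and lowest, and those filtered out. RPL26, RPL38, RPS28, RPS13 and others named in the sections on proportions, sibling values and left-out libraries were chosen after their values were seen. Some members that these rules name are not reported here, and the figures that name genes leave them out. No sequence is shown.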

Additional observations from a re-analysis of the deposited data

Results flagged for a closer look

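The sibling pairs moved in opposite directions: the median member's log2 ratio of mutant to WT was 0.33 at 5 dpf and −0.29, −0.16 and −0.20 at 48, 60 and 72 hpf. The difference between the pairs was not tested as such, since each holds 1 library per genotype, and the edgeR interaction of genotype with age called no member. With TMM-scaled values the 5 dpf median was 0.06.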

How the results depend on the processing

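No member was called for genotype under any alternative but DESeq2, which called 1, or for genotype by age under any, leaving out pairs included (0 to 0). The 39 age calls became 10 with library totals or limma at either pseudocount and 0 to 40 when a pair was left out (5 without 48 hpf, 0 without 5 dpf); all 10 were among the 39. The 2 adult calls became 7 with library totals, 11 with DESeq2, 16 and 19 with limma at pseudocounts of 1 and 0.1, 1 without the 5 dpf mutant library, and 11 to 81 without an adult replicate. Library totals moved the median of all genes to 0.14 in the genotype fit and −0.33 in the adult fit, and the members' medians to −0.08 and −1.17; they also moved the adult calls over all genes to 2297 higher and 5483 lower from 4073 and 3853. Signs turned for RPL3 and RPL4 for genotype with library totals (0.049 and 0.078) and with limma at a pseudocount of 1 (0.050 and 0.0780) or 0.1 (0.050 and 0.0781). Leaving out pairs gave −0.067 to 0.13 for RPL7L1 for genotype, −0.47 to 0.042 for RPL12, −1.08 to 0.15 for RPL29 and −0.66 to 0.084 for RPL4 for age, and −0.020 to 0.67 for RPL36 for the interaction. Leaving out an adult replicate gave −0.29 to 0.049 for RPL7L1 and −0.88 to 0.19 for rplp2 against 5 dpf, and leaving out the 5 dpf mutant 0.080 for RPL7L1. TMM-scaled values gave 0.062 for the 5 dpf pair and 0.38 for the head. Without the 5 most abundant other genes the shares, in the order head, mutant and WT from 48 hpf to 5 dpf, and adult, were 16.7, 11.9, 14.6, 10.2, 11.4, 12.1, 14.2, 9.48, 7.66, 6.04 and 2.401%, and as shares of summed cRPKM 30.2, 24.0, 27.5, 19.8, 21.6, 22.7, 24.8, 18.0, 13.7, 11.1 and 4.72%. The cause of these moves was not tested. Linear age was fitted per day. The low-count filter kept RPL17 (0 to 13 counts) and 1 other member out of the tests, and each larval group holds 1 library.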
